A study of Saccharomyces cerevisiae with 9 samples.

Results

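The strains described here are the members of a haploid yeast deletion pool whose tag levels were measured both at 200 µM and at 400 µM sodium arsenite. All strains with a value on both arrays were taken, which gave 4004 of the 5101 strains measured anywhere in the series. Their values at the higher dose were compared with those at the lower dose, strain by strain. Each strain of Saccharomyces cerevisiae carries one gene replaced by kanMX and a pair of short DNA tags that identify it, and strains are named here by the gene they lack. The study followed knockout pools on 9 two-colour tag arrays, with Cy5 for the culture without arsenite and Cy3 for the culture with it on every array. Tags were amplified from genomic DNA.

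The haploid pools came from heterozygous diploid knockouts of BY4743, an S288C derivative, that were sporulated and selected for MATa progeny. The diploid genotype was ura3Δ0 leu2Δ his3Δ1 lys2Δ0/LYS2 met15Δ0/MET15 can1Δ::LEU2-MFA1pr-HIS3/CAN1 xxx::kanMX/XXX, where xxx is the deleted gene. Both cultures of a haploid array were split from one source and grown side by side to confluence at 30 °C on plates that select the haploids, without arsenite or with 0, 100, 200, 400, 800 or 1600 µM. Each of these 6 doses has 1 array. The other 3 arrays held heterozygous diploids grown in liquid YPD for 0 and 450 µM, and haploids that also carried a pfd1::TEF1pr-URA3 disruption for 5 µM. On that last array the arsenite plate lacked uracil and the control plate contained it, so arsenite and uracil cannot be told apart there.

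Arsenite is trivalent arsenic and binds thiol groups of proteins. In yeast it enters the cell largely through the aquaglyceroporin Fps1, leaves through the plasma membrane exporter Arr3, also called Acr3, and is pumped into the vacuole as a glutathione conjugate by Ycf1. The osmosensing MAP kinase Hog1 is known to be activated by arsenite and to restrain Fps1, and folding of tubulin and actin through prefoldin and the CCT chaperonin is among the processes known to be sensitive to arsenite.

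A level is the mean of a strain's tag values, turned to arsenite over control and centred on the median strain of its array. A difference is the level at 400 µM minus that at 200 µM. The deposited log ratios were taken as log2. No source used here states their base or centring, and a natural logarithm would make every change larger in fold. Their direction is likely rather than stated. Deposited values were turned because, on the array whose arsenite plate lacked uracil, the strains without the pyrimidine enzymes URA1 and URA2 then had levels of -5.23 and -4.88, the second and the third lowest of 4612 strains. If the sign were the other way, every loss below would be a gain. A level describes a strain's share of its pool, so slower growth and death cannot be told apart.

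The haploid label was compared with strains that such pools should lack. Of 40 listed essential genes 4 had a value, each on 1 tag, and of 18 listed genes of histidine, arginine or leucine synthesis 6 had one. The list does not cover all essential genes, and others known as essential, such as SIS1, LSM8, RPC10 and PRP21, had values on 2 tags. More, such as QNS1, TOA2 and FCP1, had values on 1 tag. The 4 of 40 therefore does not measure how many essential-gene strains had values. On the 200 µM array 7472 probes gave values for 4171 strains, and on the 400 µM array 7355 probes gave 4122. Over the series the arrays held between 3713 and 8879 probes with a value. The median absolute deviation of levels was 0.225 at 200 µM and 0.3 at 400 µM.

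A strain was called fallen when at least 2 of its tags were measured on both arrays and every one of them dropped by 1 or more, and risen when every one gained 1 or more. On the log2 scale 1 is a 2-fold change. Of 2309 strains with enough tags 42 fell, which is 1.82%, and 1 rose, which is 0.0433%. None had tags past 1 in opposite directions. The median strain differed by -0.02 and 2090 of the 4004 strains, or 52.2%, had a difference under 0. Centring each array on its median strain sets both values near there, so they do not show whether the bulk of the pool lost. The 5th percentile of the differences was -1.08 and the 95th was 0.56. There is 1 array per dose, so no difference has a replicate check and no p-value is given.

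The tags of a strain gave a measure of error within an array pair. Across 2300 strains with a tag in each tag set the correlation of both differences was 0.503, a description over strains that share arrays and pool. The standard error of a mean over a pair of tags was 0.240. Of the 82 strains whose tag in set 1 dropped by 1 or more, 41 also passed 1 in set 2 and 77 lay below 0 there, with a median of -0.99. Of the 9 strains whose tag in set 1 gained 1 or more, 8 lay above 0 in set 2, with a median of 0.58. Both tags sit in the same cells and the same DNA extract, so they share every error of the culture.

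**Figure D1:**
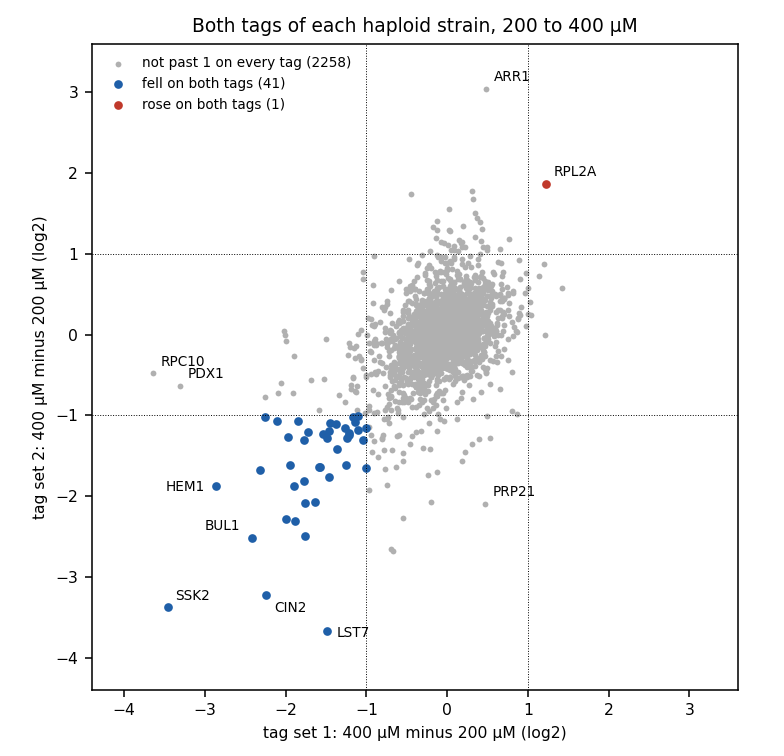
Difference between 400 µM and 200 µM (log2) of the tag in set 1 (horizontal) against the tag in set 2 (vertical), one point per strain with a tag in each set; dotted lines mark 1 and -1. The blue points are 41 of the 42 fallen strains (LTE1 has both its probes in set 1 and is not drawn), the red point is RPL2A, and RPC10, PDX1 and PRP21 are the strains whose tags lay furthest apart.

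How many strains passed depended on the scale given to the arrays. When both arrays were scaled to the same median absolute deviation 19 strains fell, all of them among the 42, and 3 rose. After quantile normalization 8 of the 42 fell and 4 strains rose. The 8 that fell under every scale were SSK2, LST7, HEM1, GCN5, SIS1, ERG2, SGF29 and DIA4. The wider spread at 400 µM thus moved with the count, and its part in the losses was not tested. The threshold itself cut through a continuous distribution. PEX2, with tag differences of -1.10 and -1.01, and SDS3, with -1.65 and -1.01, lay just inside, while VPS15, with -1.02 and -0.97, and BIK1, with -0.97 and -0.94, lay just outside.

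Most fallen strains were unremarkable at lower doses. With the lowest 0.5% and the highest 0.5% of strains set aside, levels on the 0 µM haploid array ran from -1.39 to 1.37, and this was the background range. No fallen strain lay below it without arsenite, 3 did at 100 µM and 5 at 200 µM. The number was 35 at the next dose and 40 at 800 µM. Their median level was -0.03 at 0 µM, -0.31 at 100 µM, -0.49 at 200 µM, -2.00 at 400 µM and -3.51 at 800 µM. Of all strains with 2 tags at both doses 0.0437% lay below the range without arsenite and 0.563% at 100 µM. At 200 µM the share was 0.996%, at the next dose 3.33% and at 800 µM 8.63%. Levels at 200 and 400 µM enter the choice of the 42 strains, whereas those at 0, 100 and 800 µM do not.

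**Figure D2:**
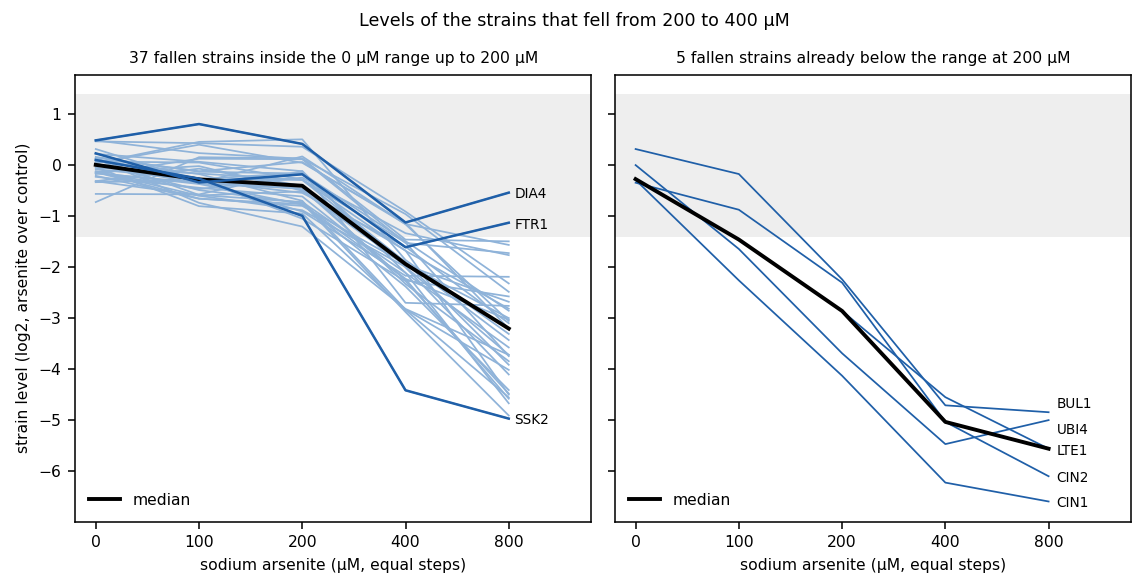
Levels (log2, arsenite over control) of the 42 fallen strains against dose in equal steps, one line per strain, with the median in black and the background range of the 0 µM array shaded. The left panel holds 37 strains that stayed inside the range up to 200 µM and the right panel the 5 that were already below it there. DIA4 and FTR1 on the left and UBI4 on the right end higher at 800 µM than at 400 µM.

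Of the 42 strains 39 were lower still at 800 µM than at 400 µM, 26 of them by 1 or more. UBI4, DIA4 and FTR1 were higher. DIA4, which lacks a mitochondrial seryl-tRNA synthetase, went from 0.41 at 200 µM to -1.13 at 400 µM and -0.54 at 800 µM. It was inside the range at each of these doses. FTR1, which lacks the iron permease of the cell surface, went from -0.19 to -1.61, below the range, and then to -1.14, back inside it. Over all members measured from 100 to 800 µM, 144 were first below the range at 400 µM, and 122 of these, or 84.7%, were also below it at 800 µM. Of the 3650 that had not yet left it downwards by 400 µM, 258 or 7.07% were below it at 800 µM.

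The strain that fell furthest lacks SSK2, a MAP kinase kinase kinase of the osmosensing pathway. Its level was 0.10 at 0 µM, -0.27 at 100 µM, -1 at 200 µM, -4.42 at 400 µM and -4.98 at 800 µM. One tag went from -0.42 to -3.88 and the other from -1.58 to -4.96, a mean difference of -3.42. Ssk1 is the response regulator that activates Ssk2, Pbs2 is the kinase after it, and Hog1 is the last kinase of the chain. Their strains each had 1 tag in common between the doses, and its difference was -3.77 for SSK1, -3.19 for PBS2 and -2.35 for HOG1. HOG1 had a further tag at 400 µM only, at -1.43. With it the level of HOG1 went from -1.16 to -2.47, a difference of -1.31. SSK1 went from -0.89 at 200 µM to -4.66 at 400 µM and -6.60 at 800 µM. PBS2 was already below the range at 200 µM, with -2.00, and went to -5.19 and then -4.74.

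The second branch of this pathway starts at the membrane proteins Sho1, Msb2 and Hkr1 and joins at Pbs2. No strain of it passed the rule, and STE50 and STE11 had 1 tag each. The differences were -0.04 for SHO1, -0.21 for MSB2, -0.34 for HKR1 and -1.04 for OPY2, whose tags gave -1.53 and -0.55. STE50, an adaptor of the kinase Ste11, had a difference of -1.13, and its level went from -1.11 at 200 µM to -2.24 at 400 µM, below the range, and -4.10 at 800 µM. STE11 differed by -0.57. SSK22, which lacks a close relative of Ssk2, differed by 0.18 on 1 tag. At 800 µM SHO1 was at -2.80, OPY2 at -2.81 and STE20 at -3.15, below the range, while MSB2 was at -0.15 and HKR1 at -0.90. Of the 12 measured strains of the whole pathway 11 lay under 0, against 52.2% of all members. The median over all members was -0.02 and that of the pathway -0.81. That median was -0.41 after quantile normalization.

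Strains without arsenite transport genes were at opposite stages of the series by 200 µM. ARR3, the exporter strain, was at -0.05 at 0 µM, -5.51 at 100 µM, -6.90 at 200 µM, -6.60 at 400 µM and -6.52 at 800 µM. Its 2 tags differed by 0.14 and 0.46 in the step. ARR1, which lacks the transcription factor that turns on ARR3, was at -5.90 at 200 µM and -4.14 at 400 µM, with tag differences of 0.48 and 3.04. These are the lowest and the third lowest of all members at 200 µM, so most of their loss came at lower doses.

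The arsenite strains that fell in the step were YCF1, the vacuolar pump, and ARR2, an arsenate reductase whose gene lies between ARR1 and ARR3 on chromosome XVI. YCF1 was at -0.15 at 0 µM, -0.38 at 100 µM, -0.77 at 200 µM, -2.38 at 400 µM and -4.42 at 800 µM. Its tags dropped by 1.58 and 1.64. ARR2 went from -0.62 to -2.24 and then -4.58, with tags at -1.97 and -1.27. Neither ARR1 nor ARR3, its neighbours, fell, but they were at -5.90 and -6.90 at 200 µM already. From levels that low a further drop may not be measurable, so this does not bear on the loss of ARR2. YAP1, which lacks a transcription factor that drives YCF1, had 1 tag with a difference of -1.67. Over the 5 measured strains of arsenite export and vacuolar sequestration the median was -1.61. It was -0.61 after quantile normalization and -0.56 from tag set 2 alone.

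The entry route went the other way, without passing the rule. FPS1, the aquaglyceroporin strain, was at -0.15 at 0 µM, 0.25 at 100 µM, 0.57 at 200 µM, 1.44 at 400 µM and 4.18 at 800 µM. Its tag differences were 0.76 and 0.98, just short of 1 on both. ASK10 and RGC1 lack the regulators that open Fps1 and were measured on 1 tag each. ASK10 differed by 1.38 and was at 4.74 at 800 µM, and RGC1 differed by 0.52 and was at 1.67.

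**Figure D3:**
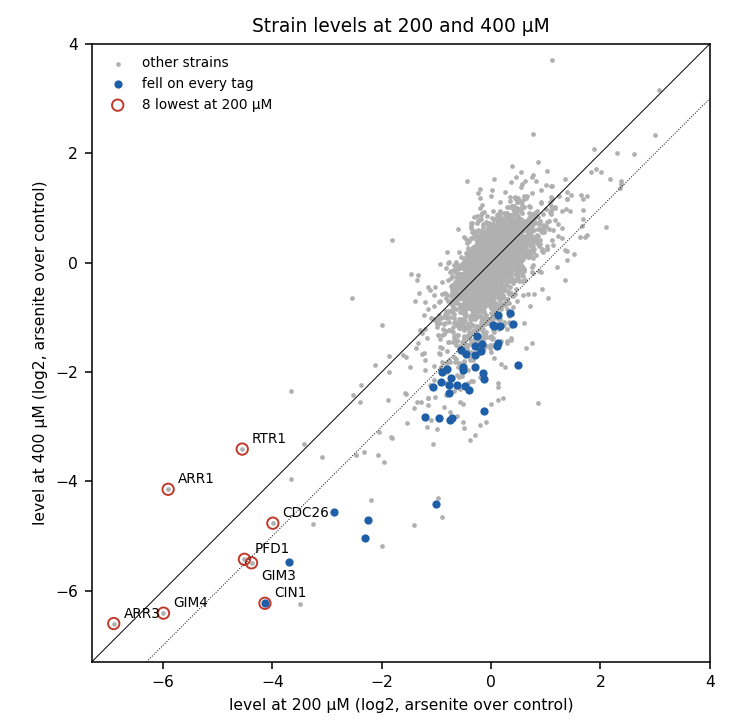
Level at 400 µM against level at 200 µM (log2, arsenite over control), one point per member; the solid line marks equal levels and the dotted line a difference of -1. Blue points are the 42 fallen strains and red circles the 8 members lowest at 200 µM, of which CIN1 fell.

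Of the 8 members lowest at 200 µM, 4 lack prefoldin subunits or a tubulin folding cofactor. Prefoldin is the cochaperone that hands unfolded tubulin and actin to CCT, and its 6 subunit strains were at -5.99 to -3.49 at 200 µM. None fell by the rule, and only PFD1 and GIM5 had 2 tags to judge. PFD1 went from -4.51 to -5.42, with tag differences of -1.70 and -0.13. GIM3, GIM4 and PAC10 differed by -1.11, -0.42 and -2.75 on 1 tag each, and YKE2 by 1.31. At 800 µM the subunit strains were at -6.60 to -3.51. The median difference of -0.67 over these 6 strains turned to 0.65 when arrays were scaled to the same spread and to 0.43 after quantile normalization, so it carries no direction. RTR1, a phosphatase of RNA polymerase II, and CDC26, a subunit of the anaphase-promoting complex, complete the 8 lowest.

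Tubulin cofactors complete tubulin folding after CCT. Of their strains CIN1 and CIN2 fell, and both were below the range at 200 µM already. CIN1 was at -0.30 at 0 µM, -2.27 at 100 µM, -4.14 at 200 µM, -6.23 at 400 µM and -6.60 at 800 µM. CIN2 was at -0.35, -0.88, -2.31, -5.04 and -6.11 at the same doses. Its tags went from -2.58 to -4.82 and from -2.04 to -5.26. TUB3, the minor alpha-tubulin gene, went from -3.26 to -4.78, with tags at -2.26 and -0.77, and missed the rule. CIN4, a small GTPase that works with Cin2, stayed at -0.02 and -0.40, and ALF1, another cofactor, had tags at 0.04 and 1.28. RBL2, which lacks cofactor A, had 1 tag with a difference of -2.40, from -0.52 at 200 µM, inside the range, to -2.92. CIN1 and CIN2 are among strains whose place depends on scale: after scaling to the same spread CIN2 fell and CIN1 did not, and after quantile normalization neither did.

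Strains without dynein and dynactin proteins were lower at 400 µM. Dynein pulls the nucleus into the bud along microtubules, dynactin is its activating complex and Num1 its cortical anchor. NUM1, NIP100 and ARP1 fell among 6 strains of this list with 2 tags, against 1.82% of all strains with 2 tags. NUM1 went from -0.77 to -2.23, NIP100 from -1.05 to -2.28, and ARP1 from -0.81 to -1.95. The dynactin strains JNM1 and LDB18 had 1 tag at -1.42 and tags at -1.07 and -0.30. All 11 measured strains of the list lay under 0, against 52.2% of all members. Their median was -0.69, or -0.38 under the equal-spread scale and -0.23 after quantile normalization. DYN1, the motor itself, differed by -0.47 on 1 tag. Of the 9 strains with 2 tags among kinesins and plus-end proteins none fell, with a median of -0.41 over 13 strains. BIK1 came closest, and KAR9 and KIP2 differed by -0.34 and 0.01. Whether these lists differ was not tested. Under the equal-spread scale none of the 3 fallen motor strains passed.

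LTE1, a factor of mitotic exit, was below the range at 200 µM already, with -2.87, and went to -4.55. It has both its probes in the same tag set. MCK1, which lacks a GSK-3 type kinase, had 1 tag and a difference of -3.39, from -1.41 to -4.80. The spindle checkpoint strains MAD1 and MAD2 differed by -0.07 and -0.65. Over the 12 strains of spindle checkpoint and mitotic exit the median was -0.49, but 0 from tag set 2 alone and -0.04 after quantile normalization.

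Strains without chromatin regulators were among the late losses. GCN5 lacks the histone acetyltransferase of SAGA and SGF29 its reader subunit. GCN5 was at 0.03 at 0 µM, -0.49 at 100 µM, -0.74 at 200 µM, -2.88 at 400 µM and -4.92 at 800 µM. SGF29 was at -0.09, -0.28, -0.15, -2.01 and -4.11. Both fell under every scale. Of 8 strains with 2 tags among SWI/SNF, SAGA and Mediator these 2 fell, and of 17 strains with 1 tag, 5 passed -1, HFI1, NGG1 and SGF73 of SAGA, SIN4 of Mediator and SNF12 of SWI/SNF. Over all members 1.82% of strains with 2 tags fell, and 153 of 1683 strains with 1 tag, or 9.09%, passed -1. The SAGA strain SPT8 differed by 0.01.

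The histone deacetylase Rpd3 works in a large complex with Sin3 and Sds3. SIN3 fell from -0.29 to -1.91, and SDS3 from 0.17 to -1.17. RPD3 itself, RXT3 and SAP30 had 1 tag each, with differences of -1.78, -1.38 and -1.08. PHO23, RXT2 and ASH1, also of the large complex, had 2 tags each and differed by only -0.17, -0.13 and 0.155. HDA3, of the separate Hda1 complex, fell from -0.17 to -1.49, while its partners HDA2 and HDA1 differed by -0.79 and -0.89. Strains of the Set3 complex, another deacetylase, lay on the other side of 0 without passing the rule. Of the small Rpd3 complex, which shares Rpd3 and Sin3, only RCO1 and EAF3 did so. SET3 differed by 0.67, SIF2 by 0.56, RCO1 by 0.41 on 1 tag, and EAF3 by 0.08. By 800 µM RPD3 was at -3.98 and SIN3 at -3.43, while SET3 was at 2.05 and SIF2 at 2.27. Over all 20 deacetylase strains 3 of 13 with 2 tags fell, against 1.82% of all strains with 2 tags. The median was -0.15, with 0 from tag set 1 alone. LGE1, a cofactor of histone H2B ubiquitination, fell from -0.92 to -2.17, and BRE1, the ligase it assists, had tags at -1.42 and -0.21.

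LST7 fell by 2.58, and its partner LST4 had 1 tag with a difference of -1.83. Both proteins form a complex that activates the Rag GTPases upstream of the growth kinase complex TORC1. LST7 stayed at 0.22, 0.06 and -0.12 up to 200 µM and then went to -2.71 at 400 µM and -2.76 at 800 µM. Its tags agreed least of the fallen strains, at -1.49 and -3.67. SEA4, a subunit of the SEA complex that acts on the same GTPases, fell from -0.73 to -2.12 and reached -4.67 at 800 µM. RTC1, of the same subcomplex, differed by -2.77 on 1 tag. MTC5, also of this subcomplex, had tags at -0.65 and -0.13 and was inside the range at 800 µM, with -0.29. NPR2 and NPR3, of the opposing subcomplex that holds TORC1 back, differed by 0.29 and, on the tag in common, 0.40, and were at 2.59 and 1.61 at 800 µM. Of the Rag GTPase strains GTR2 had tags at 0.38 and 0.39, and GTR1 differed by -0.71 and was at -0.37 at 800 µM. MEH1, SLM4 and TOR1 differed by -0.48, -0.26 and -0.02. The median over the 13 strains of this list was -0.48, or -0.29 from tag set 1 alone.

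BUL1 lacks an adaptor that brings cargo to the ubiquitin ligase Rsp5. It went from 0.31 at 0 µM and -0.18 at 100 µM to -2.25 at 200 µM and -4.72 at 400 µM. Its tags dropped by 2.42 and 2.52. BUL2, its paralog, differed by -0.05. Of the 11 Rsp5 adaptor strains with 2 tags, BUL1 included, BUL1 alone fell, against 1.82% of all strains with 2 tags. UBI4, the polyubiquitin gene that supplies ubiquitin under stress, was at -1.65 at 100 µM, -3.70 at 200 µM, -5.47 at 400 µM and -5.01 at 800 µM. RPN4, the transcription factor of proteasome genes, had 1 tag with a difference of -2.38. Of the 16 proteasome and ubiquitin strains with 2 tags UBI4 alone fell, against the same 1.82%. The median over 21 was -0.10, or -0.20 from tag set 2 alone.

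Among signalling strains BMH1, the major 14-3-3 protein, went from -0.70 to -2.83 and PDE2, a cyclic AMP phosphodiesterase, from -0.89 to -2.00. IRA1 and IRA2, which lack inhibitors of Ras, were below the range at 200 µM. IRA1 had tags at -2.66 and -0.69 and IRA2 1 tag at -2.15. RAS1 and RAS2 differed by -0.24 and -0.35, and PDE1, the other phosphodiesterase, by 0.34. Strains of Ras and PKA signalling thus had 1 of 11 with 2 tags fallen, against 1.82% of all strains with 2 tags. Their median was -0.24, or -0.07 after quantile normalization. PIN4, linked to the DNA damage checkpoint, dropped by 1.90 and 1.88 on its tags. INP51, a phosphoinositide phosphatase, went from 0.05 to -1.16.

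In DNA repair and replication 2 of 29 strains with 2 tags fell, against 1.82% of all strains with 2 tags. RAD50, of the Mre11 complex that processes double-strand breaks, went from -0.52 to -1.91 and was at -3.92 at 800 µM. XRS2 of the same complex had tags at -1.52 and -0.85. CTF8, of a replication clamp loader that acts in cohesion, fell from 0.35 to -0.92. CTF4, another replication and cohesion factor, had tags at -1.59 and -0.93. RAD52 and RAD27 had 1 tag each, at -1.08 and -1.53. The checkpoint strains MEC3 and RAD17 lay above 0, at 0.45 and 0.52. The median over 42 strains was -0.37, or -0.14 after quantile normalization.

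ERG2, a late enzyme of ergosterol synthesis, fell from -0.41 to -2.33 and reached -3.85 at 800 µM. ERG6, ERG3 and ERG24, enzymes of the same late steps, had 1 tag each with differences of -1.42, -1.40 and -1.32. ERG5 differed by -0.19 on 1 tag. ERG28, also listed under ergosterol synthesis, had tags at -1.04 and 0.69 and was at 0.19 at 800 µM. HMG1 and HMG2 differed by -0.11 and 0.22. UPC2, a regulator of the pathway, had tags at 0.11 and 0.54. The median over the 9 strains of this list was -0.19, or 0.01 from tag set 2 alone. CSF1, a lipid transfer protein, fell from -1.21 to -2.83. SEC66, a subunit of the complex that moves proteins into the endoplasmic reticulum, went from -0.47 to -2.27 and then only to -2.58.

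Few strains of mitochondrial translation passed the rule, but most lay under 0. Against 1.82% of all strains with 2 tags, 1 of 24 here fell. It was RML2, a protein of the large mitochondrial ribosomal subunit, which went from 0.11 to -1.53. Of 26 strains with 1 tag 8 passed -1, against 9.09% of all strains with 1 tag. Of all 50 members 41 lay under 0 and the median was -0.53, against 52.2% under 0 and -0.02 over all members. The median level was at or near 0 at 200 µM in these strains. By 800 µM 23 of 49 were below the range, against 430 of 3882 members. Strains of the respiratory chain and ATP synthase, measured in 37 cases, had a median of 0.05. Of 20 with 2 tags none fell, against the same 1.82%. Whether the lists of the mitochondrial ribosome and the respiratory chain differ was not tested.

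Peroxisome strains are described in 3 lists by role. These lists were drawn up after the values were seen, so their counts are a description. Peroxins of matrix import and membrane assembly had 13 measured strains. Of 9 with 2 tags only PEX2 passed the rule, against 1.82% of all strains with 2 tags. Pex2 is a subunit of the ubiquitin ligase that recycles the import receptor. All 13 lay under 0, between -1.48 and -0.84, against 52.2% of all members under 0. PEX5, the receptor of the main targeting signal, was at 0.26 at 0 µM, -0.32 at 100 µM, -0.52 at 200 µM, -1.57 at 400 µM and -2.82 at 800 µM. PEX3 and PEX19, which insert peroxisomal membrane proteins, differed by -1.45 and, on 1 tag, -1.48. PEX13 and PEX14, of the docking complex, differed by -1.09 and -1.02.

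The median level of these 13 strains went from -0.52 at 200 µM through -1.60 at 400 µM to -3.01 at 800 µM. At the last dose all 13 were below the range, against 430 of 3882 members. PEX7, PEX18 and PEX21 serve the second targeting signal, which few yeast proteins carry. Their median difference was 0.26, with 0.02 from tag set 1 alone, and none was below the range at 800 µM. The 8 strains of peroxins that set peroxisome size and number lay between -0.27 and 0.42 with a median of 0.21, or -0.06 from tag set 1 alone, and none was below the range at 800 µM. PEX32 was above it, at 1.94. The median of the import peroxins was -0.76 under the equal-spread scale and -0.54 after quantile normalization, smaller in size and still under 0.

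**Figure D4:**
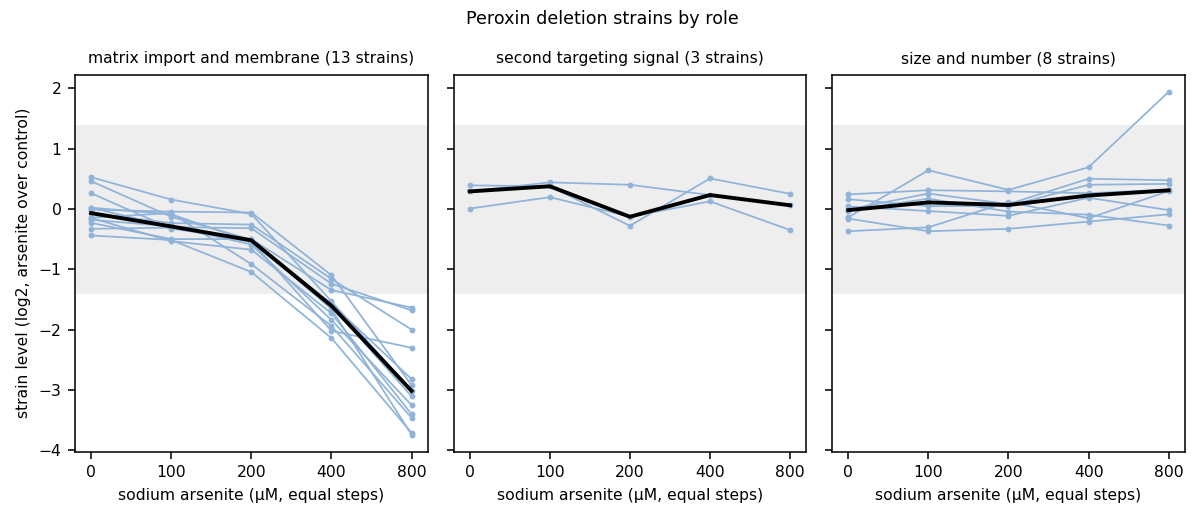
Levels (log2, arsenite over control) of peroxin deletion strains against dose in equal steps, one line per strain, with the median in black and the background range of the 0 µM array shaded. All 13 strains of matrix import and membrane assembly are below the range at 800 µM and none of the other 11 is.

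RPL2A alone rose. It lacks one of a pair of identical genes for a protein of the large cytosolic ribosomal subunit. Its level was 0.24 at 0 µM, 0.11 at 100 µM, -0.20 at 200 µM, 1.35 at 400 µM, 2.96 at 800 µM and 4.47 at 1600 µM. Its tags gained 1.22 and 1.87, and it rose under every scale. Over all members 52.2% of differences were under 0. The 40 strains of the large subunit had a median of 0.26 and 13 under 0, and the 28 of the small subunit a median of 0.21 and 6 under 0. The first was 0.15 under the equal-spread scale and the second 0.49 from tag set 2 alone. RPS8A and RPS19A of the small subunit differed by 1.5 and 1.21 on 1 tag each. RPL14A, with tags at -0.98 and -0.28, and RPS14A, with 1 tag at -1.38, lay on the other side.

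Strains of nonsense-mediated decay and the SKI complex, which degrade faulty messenger RNAs, lay above 0 in 9 of 9 cases, from 0.07 for SKI3 to 0.72 for NMD4. Over all members 52.2% lay under 0. None of the 9 strains passed the rule, and only SKI3 and SKI7 had 2 tags. The median was 0.47, and 0.28 from tag set 1 alone and 0.29 under the equal-spread scale. At 800 µM the 8 with a value were all above the background range, with NAM7, the helicase Upf1, at 3.74 and UPF3 at 3.98. Nuclear pore strains had a median of 0.18, or 0.10 under the equal-spread scale, and NUP100 differed by 1.14 on 1 tag. For comparison 6.46% of strains with 2 tags were above the range at 800 µM and 0.217% at 400 µM.

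**Figure D5:**
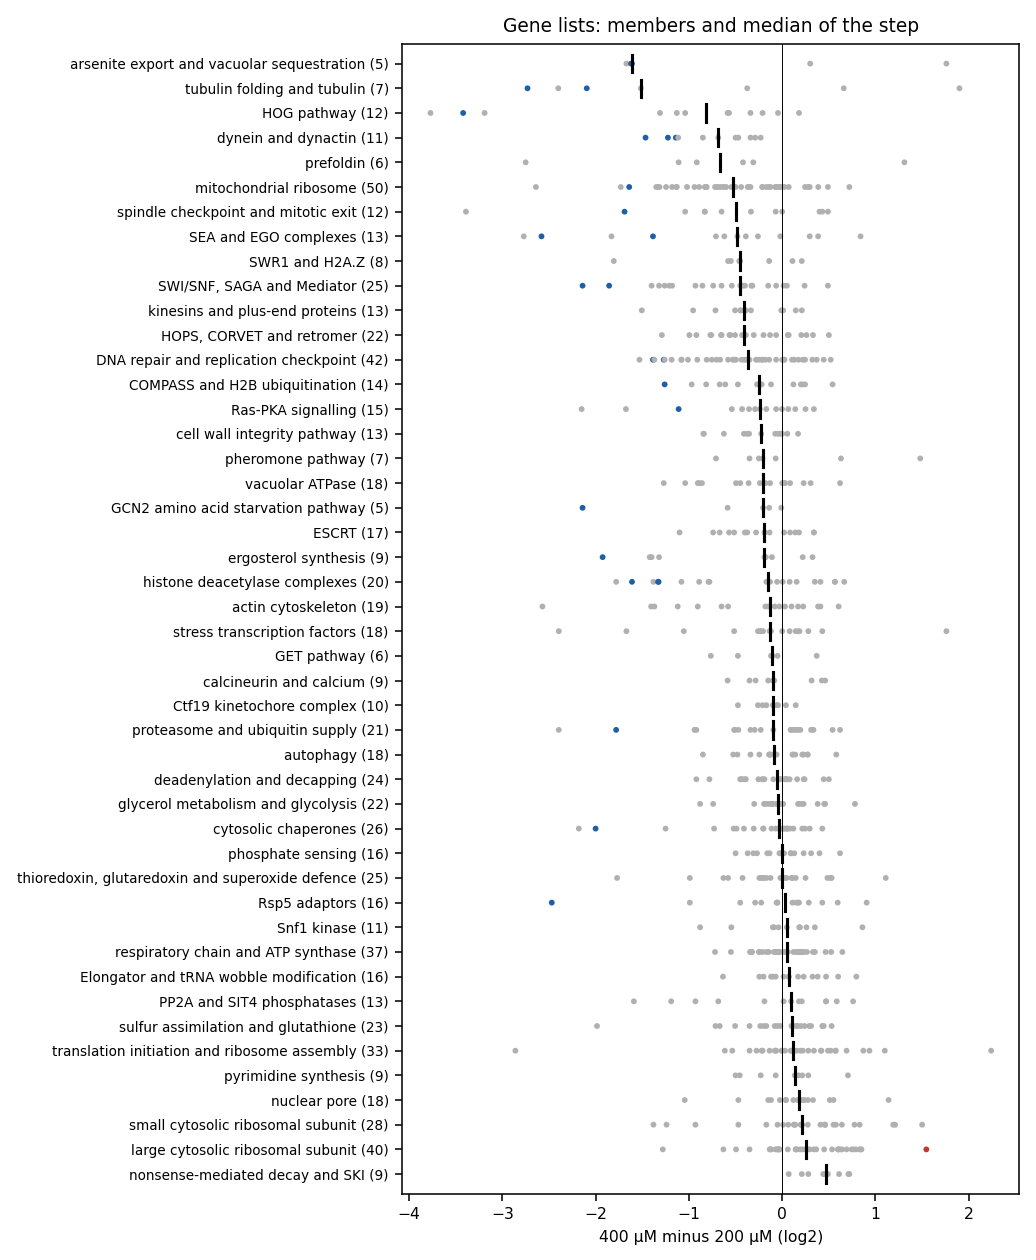
Difference between 400 µM and 200 µM (log2) of every measured strain of each pathway list with 5 or more strains, with the number measured in brackets and a black bar at the median. Blue points fell and the red point rose by the rule on every tag; the medians run from -1.61 (arsenite export and vacuolar sequestration, -0.61 after quantile normalization) to 0.47 (nonsense-mediated decay and SKI).

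Some strains need care with what their tags measured. SIS1, a cytosolic Hsp40 chaperone, and LSM8, a splicing factor, are known as essential genes, and haploids without them should not grow. SIS1 went from -0.12 to -2.12 with tags at -2.32 and -1.68, and LSM8 from 0.13 to -1.47 with tags at -2.11 and -1.07. QNS1, TOA2 and FCP1, also known as essential, had 1 tag each with differences of -2.69, -2.61 and -2.20. Which cells carried these tags was not tested, and the part of essential-gene strains in the losses on 1 tag was not counted. HEM1, which lacks the first enzyme of haem synthesis and is known to need a precursor in the medium, was at 0.50 at 200 µM and -1.86 at 400 µM. Of the fallen strains not placed above, AAT2 lacks the cytosolic aspartate aminotransferase, DAT1 a DNA-binding protein, VID22 a nuclear protein and SDD2 a small protein, and they fell by 1.39, 1.46, 1.18 and 1.24.

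The widest differences in either direction came from strains with 1 tag, which have no check within the array. Beside SSK1, PBS2 and MCK1 the lowest were ILM1 with -3.41 and URE2, a regulator of nitrogen use, with -3.34. URE2 was at 0.49 at 100 µM, -0.97 at 200 µM, -4.31 at 400 µM and -3.42 at 800 µM. Of all 1683 strains with 1 tag 30, or 1.78%, passed 1. The highest were NUP1 with 2.59, DBP7 with 2.24, TUB4 with 1.90, TYW3 with 1.67 and RPS8A with 1.5. DBP7 was at 0.06 at 0 µM, -1.82 at 200 µM, 0.42 at 400 µM and -0.25 at 800 µM, so its gain rests on a low value at 200 µM. The tags lay furthest apart in RPC10, at -3.64 and -0.48, in PDX1, at -3.31 and -0.64, and in PRP21, at -2.10 and 0.47.

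Losses in the step were more frequent than gains only between these doses and below. From 0 to 100 µM 8 of 1994 strains fell, or 0.401%, and 1 rose, or 0.0502%. From 100 to 200 µM 15 of 2280 fell, or 0.658%, and none rose. From 400 to 800 µM 97 of 2197 fell, or 4.42%, and 117 rose, or 5.33%. Neighbouring steps share an array, and a high value on it enters both with opposite signs.

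Heterozygous diploids keep a copy of each gene. Among the fallen strains their level at 450 µM minus that at 0 µM had a median of -0.17 and lay under 0 in 30 of 42 strains. Only SSK2 passed -1, with -1.57, against 38 of 2278 strains or 1.67% overall. Diploids grew in liquid for 10 generations and the haploids on plates, so ploidy, medium and dose cannot be told apart. In the haploids with the pfd1 disruption at 5 µM 15 of the 42 were below the background range, against 3.29% of strains with 2 tags. BMH1 was lowest there, with -3.59, followed by LTE1 with -2.5 and CTF8 with -2.38. BUL1 was above the range, with 1.42, as were 4.03% of strains with 2 tags. At 1600 µM 29 of the 42 had a value and 7 were below the range, against 3.73% of strains with 2 tags, on an array whose deposited median was 2.99 and which held 3713 probes.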

How the data were processed

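The values as deposited, taken as log2, are log ratios of the channels of each array; per the labels, the authors amplified tags from genomic DNA with labelled primers, Cy5 for control and Cy3 for arsenite. No source used here states the log base, centring, scanner steps or direction. Of 22575 probes 9727 had a value, and the platform annotation gave 8765 of these 1 gene and 962 none. Symbols were updated through the R64 gene table. Values were turned to arsenite over control, centred on the median strain of each array, and averaged over a strain's probes. Tags were set in 2 sets by their place in the table, and which holds the UpTags is unknown. No p-value was computed, since each dose has 1 array. Python 3.11.15 with pandas 2.3.3 and numpy 2.4.6 was used, and the calls were tested on simulated data.

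Named strains were the 15 lowest and 12 highest called, members called or furthest out in each list, the 8 lowest at 200 µM, the 5 lowest and 5 highest with 1 tag and the 3 with the most discordant tags; other named strains were picked from the lists after their values were seen. Members and lists were chosen with earlier results of these data known. No tag or protein sequences were used here.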

Additional observations from a re-analysis of the deposited data

Results flagged for a closer look

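Among probes without a gene name, which enter no comparison above, 5 of 258 tag pairs dropped by 1 or more on both tags between 200 and 400 µM, or 1.94%, beside 1.82% of named strains, and 1 pair gained as much. The lowest pair had a mean difference of -2.89. On the 0 µM haploid array 0 of 225 such pairs had levels of -1 or lower on both tags. Which strains they mark was not used here.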

How the results depend on the processing

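No array is repeated, so no replicate could be left out. No paired analysis was possible because each group has 1 array and the groups share only the number 1. Fallen and risen strains numbered 42 and 1 with every tag past 1. They numbered 15 and 0 past 1.5, 136 and 32 past 0.5, and 85 and 8 past 0.69, the size of a 2-fold change if values were natural logs. With the mean of the tags past 1 there were 78 and 6, and with the mean over all 3992 strains that share a tag 231 and 36. Tag set 1 alone gave 167 and 21 of 3225, and tag set 2 alone 158 and 56 of 3067. Scaling to the same median absolute deviation gave 19 and 3, the added risers being ARR1 and ARR3, and quantile normalization 8 and 4, with GSP1, NUP170 and SAS2 added. Leaving out the centring, centring on shared strains, and keeping strains inside the background range at 0 µM or measured from 0 to 800 µM each gave 42 and 1. Of 221 list medians under other settings 186 moved by less than 0.240. The sign changed in 20, over 15 lists. In 4 of these the reported median was further from 0 than 0.240: prefoldin became 0.43 after quantile normalization and 0.65 under equal spread, and quantile normalization took COMPASS and H2B ubiquitination to 0.0912 and the haploid selection list to 0.0075. The other 16 began between -0.19 and 0.21 and ended between -0.18 and 0.48, so medians this close to 0 carry no direction. The cause of these shifts was not tested. The settings for 6 of the 56 lists were chosen after seeing the data. The standard error of a pair of tags, 0.240, covers only scatter between tags and is not a limit of detection. A loss near or below that size cannot be seen in one strain, and errors shared by both tags come on top.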

Other observations

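The next lists were drawn up after the values were seen. Haem synthesis strains were low together. HEM1 fell by 2.37, and HEM3, HEM15 and HEM14, which lack later enzymes of the pathway, differed by -1.01, -0.79 and, on 1 tag, -0.75. All 4 were below the background range at 800 µM, against 430 of 3882 members. The NatC acetyltransferase, which modifies protein N termini, had 2 fallen strains. MAK10 fell from -0.47 to -1.68 and was at -4.50 at 800 µM, and MAK3, the catalytic subunit, fell from 0.12 to -0.96 and was at -2.49. MAK31, the remaining subunit, differed by -0.49 and was at -3.25 at 800 µM.

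Of high-affinity metal uptake strains FTR1, the iron permease, and CTR1, the copper transporter, fell. FET3, the oxidase that works with Ftr1, differed by -0.54, and CCC2 and ATX1, which carry copper to it, by 0.08 and -0.12 on 1 tag each.

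By position, against 1.82% over all strains with 2 tags, chromosome XVI held 7 fallen of 195, or 3.59%, chromosome V 4 of 126, or 3.17%, and chromosome I 1 of only 6. Chromosomes XI and VI held 0 of 140 and 0 of 49. The other chromosomes lay between 1.12% and 2.73%. Of 53 measured genes next to a fallen one, 29 had 2 tags and 0 of these fell. Against a share of 1.82%, 29 strains are too few to tell whether neighbours differ. The median difference over the 53 was -0.10, and 4 of them differed by -1 or lower. CTK3, beside DAT1, had a mean of -1.68 over 2 tags. ERG9 beside CTF8, ELO3 beside VID22 and IRC21 beside SDD2 differed by -1.77, -1.35 and -1.25 on 1 tag each.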
